A study of Mus musculus with 4 samples.

Results

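The Fc receptor genes described here were Fcgr1, Fcgr2b, Fcgr3, Fcgr4, Fcer1g, Fcgrt and Fcrl5. They were chosen by name, as the rows of the deposited gene tables that carry these symbols, and they made up 7 of 31253 genes. Their unique molecular identifiers (UMIs, each standing for a captured transcript) were followed over immune cells of a mouse glioma and between WT and CaMKK2 KO mice.

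Receptors for the constant (Fc) part of IgG let phagocytes and NK cells react to targets coated with antibody. FcγRI (Fcgr1), FcγRIII (Fcgr3) and FcγRIV (Fcgr4) are activating receptors that signal through the FcR γ-chain (Fcer1g), whose phosphorylated ITAM recruits the kinase Syk, while FcγRIIB (Fcgr2b) carries an inhibitory ITIM that recruits the phosphatase SHIP1. FcRn (Fcgrt) pairs with β2-microglobulin and returns internalised IgG and albumin from endosomes to the cell surface, and Fcrl5 encodes a Fc receptor-like protein best known from B cells.

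Groups of 4 mice of each genotype carried CT2a, a glioma line grown orthotopically in the brain of C57Bl/6 mice, and the tumor-bearing hemispheres were taken 14 days after implantation. WT mice had intact CaMKK2, a calcium- and calmodulin-dependent kinase, CaMKK2 KO mice carried its deletion (CaMKK2-/-) without restriction to a cell type, and no drug is named for either group. Female mice of 8 to 12 weeks, matched for age, were used in the study, with purchased C57BL/6J mice and a CaMKK2-/- line from another laboratory that was derived from or backcrossed to C57BL/6. Live CD45+ leukocytes were sorted, cells of the 4 mice of a genotype were marked with hashtag antibodies and pooled, and each pool was run on its own 10x 3′ channel, so genotype and channel cannot be told apart.

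After removal of hashtag doublets and outlying cells, 5031 WT and 5624 CaMKK2 KO cells remained, with a median of 12586 and 11456 UMIs per cell and 999 to 1660 cells per mouse. Cells were assigned to 14 classes by marker genes that held no Fc receptor gene, and 12.7% of WT and 13.8% of CaMKK2 KO cells stayed unassigned. Tumor-associated macrophages (TAM), microglia, classical monocytes (cMono), type 2 dendritic cells (DC2), NK, CD8 T and B cells had at least 10 cells in every mouse and were tested, which made 7 classes. Most TAM of the genotypes lay in different expression clusters, 88.1% of WT TAM in a cluster that held 6.27% of CaMKK2 KO TAM. Camkk2, the targeted gene, stood at 27.6 to 39.1 CPM (UMIs of a gene per 1000000 UMIs of the same cells) over all kept cells of the WT mice and at 13.3 to 22.5 CPM in the CaMKK2 KO mice, and it was lower in CaMKK2 KO TAM by 1.07 on the log2 scale (SE 0.13, edgeR adjusted p = 0.0024). Whether its 3′ tags lie in the deleted part is not given in the sources used here. The 2 channels shared 42 cell barcodes, of which 8 were among the kept cells of both.

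On mm10, Fcgr2b (1, 170958617 to 170976547), Fcgr4 (1, 171018920 to 171029761), Fcgr3 (1, 171051174 to 171064935) and Fcer1g (1, 171229572 to 171234365) are neighbouring protein-coding genes of chromosome 1. Fcrl5 (3, 87435773 to 87500678) and Fcgr1 (3, 96282909 to 96293969) are on chromosome 3, and Fcgrt (7, 45092990 to 45103851) is on chromosome 7. In GENCODE, Gm26110 lies within the span of Fcgr4 and Mir6546 within that of Fcgr3 on the same strand, while Gm38204 and Gm45669 overlap Fcgr2b and Fcgrt on the other strand. Fcgr2b and Fcgr3 were the only pair whose transcripts shared stretches of 90 bases, 64 in all, and none of these lay in the last 600 bases, where 3′ reads start.

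RefSeq promoter windows of GRCm38.p6, 250 bases before to 50 bases after the start, were present for 7 of the 7 genes. They were searched on both strands for GAGGAA, the core letters of the PU-box bound by the myeloid factor PU.1, and for TTCNNNGAA, the letters of the interferon-gamma activated site (GAS). GAGGAA was in 28.3% and TTCNNNGAA in 8.3% of 32851 windows of this length. The windows of the 3 activating receptors each held GAGGAA, read as TTCCTC on the printed strand, and that of Fcgr1 also held a GAS match, with no overlap between them. They are shown with the windows of Fcgr2b and of Fcgrt, the genes on which the genotype comparisons turn, and in those neither string was found. Capitals mark the matches, and the sequences run 5′ to 3′ on the strand of the gene.
Fcgr1, chr3:96293920-96294219, strand -: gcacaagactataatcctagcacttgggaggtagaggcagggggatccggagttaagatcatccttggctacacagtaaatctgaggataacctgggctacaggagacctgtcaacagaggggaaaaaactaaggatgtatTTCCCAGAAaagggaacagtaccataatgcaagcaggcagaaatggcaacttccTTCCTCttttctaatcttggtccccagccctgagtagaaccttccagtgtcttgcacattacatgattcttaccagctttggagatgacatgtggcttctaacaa
Fcgr3, chr1:171059354-171059653, strand -: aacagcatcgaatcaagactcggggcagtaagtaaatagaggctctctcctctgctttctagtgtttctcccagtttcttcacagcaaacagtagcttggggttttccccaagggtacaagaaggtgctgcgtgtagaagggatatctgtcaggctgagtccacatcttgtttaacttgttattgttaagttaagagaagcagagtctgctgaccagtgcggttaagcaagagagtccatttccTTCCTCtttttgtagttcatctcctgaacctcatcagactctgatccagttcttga
Fcgr4, chr1:171018676-171018975, strand +: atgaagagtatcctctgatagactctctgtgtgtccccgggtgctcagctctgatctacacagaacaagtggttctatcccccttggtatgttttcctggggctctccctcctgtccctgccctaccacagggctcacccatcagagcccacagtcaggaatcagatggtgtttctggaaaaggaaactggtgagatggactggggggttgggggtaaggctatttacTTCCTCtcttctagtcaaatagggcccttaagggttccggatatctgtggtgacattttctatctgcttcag
Fcgr2b, chr1:170976022-170976321, strand -: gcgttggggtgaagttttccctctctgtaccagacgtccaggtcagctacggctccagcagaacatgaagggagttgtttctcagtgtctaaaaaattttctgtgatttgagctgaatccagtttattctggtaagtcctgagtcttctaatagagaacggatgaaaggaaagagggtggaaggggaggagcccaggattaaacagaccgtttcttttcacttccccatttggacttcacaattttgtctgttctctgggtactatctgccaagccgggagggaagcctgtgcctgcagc
Fcgrt, chr7:45103773-45104072, strand -: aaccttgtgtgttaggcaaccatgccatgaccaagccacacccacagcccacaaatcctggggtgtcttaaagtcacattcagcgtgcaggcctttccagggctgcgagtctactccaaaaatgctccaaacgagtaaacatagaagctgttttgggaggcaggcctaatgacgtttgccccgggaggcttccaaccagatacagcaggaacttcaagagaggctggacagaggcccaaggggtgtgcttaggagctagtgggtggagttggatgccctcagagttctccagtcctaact

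The activating receptors were myeloid genes with different peaks. Fcgr1, the high-affinity receptor, averaged 796 ± 156 CPM in cMono, 591 ± 151 CPM in TAM and 505 ± 59.7 CPM in microglia (SD, n = 8 mice), and adjoining classes in this order overlapped within 1 SD. Fcgr3 averaged 1163 ± 161 CPM in microglia, 984 ± 120 CPM in TAM and 880 ± 75.6 CPM in cMono, again with overlapping spreads. These spreads are between mice. Within every mouse Fcgr1 was higher in cMono than in TAM, and Fcgr3 was higher in microglia than in TAM. The order of TAM and microglia for Fcgr1 and of TAM and cMono for Fcgr3 did not hold in every mouse. Fcgr4, which is known from non-classical monocytes (ncMono), averaged 876 ± 162 CPM there, 622 ± 160 CPM in TAM, 366 ± 74.3 CPM in cMono and 282 ± 90 CPM in microglia. The step from TAM down to cMono exceeded the SDs for Fcgr4, while ncMono and TAM overlapped. In NK, T and B cells the means of the 3 genes were lower than in any of these myeloid classes.

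The shared signalling chain reached further than the receptors it serves. Fcer1g averaged 3843 ± 431 CPM in TAM, 3620 ± 372 CPM in ncMono, 3050 ± 367 CPM in cMono and 2500.5 ± 183 CPM in microglia, and NK cells followed at 2026 ± 334 CPM. NK cells, whose antibody-dependent killing uses FcγRIII, had 75.5 ± 12.4 CPM of Fcgr3, whereas CD8 T cells, taken as the level of free RNA, had 10.5 ± 5.54 CPM. With every cell thinned to 3000 UMIs, an Fcgr3 UMI was seen in 20.8% of WT and 20.6% of CaMKK2 KO NK cells, and in 4.07% and 2.69% of CD8 T cells. Without thinning, at a median of 8300 and 6409 UMIs per NK cell and 10620 and 12300 per CD8 T cell, these shares were 46.4% and 41.7% of NK and 14.2% and 8.63% of CD8 T cells, and 13 WT and 24 CaMKK2 KO NK cells were too shallow to be thinned. Fcgr1 and Fcgr4 in NK cells, at 10.8 ± 9.75 and 6.27 ± 2.78 CPM, lay within 10 CPM of their CD8 T levels.

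The inhibitory receptor was found in both myeloid and B cells. Fcgr2b averaged 843 ± 167 CPM in TAM, 659 ± 160 CPM in cMono, 483 ± 74.8 CPM in microglia and 363 ± 121 CPM in ncMono. B cells, in which FcγRIIB is the only classical IgG receptor, had 98.9 ± 19.1 CPM, against 11.3 ± 4.12 CPM in CD8 T cells. In B cells thinned to 3000 UMIs the share with a UMI was 18% in WT and 26.9% in CaMKK2 KO mice, against 3.31% and 1.49% of CD8 T cells. Without thinning it was 25.1% and 38.8% of B cells, at a median of 3553 and 4990 UMIs, and 32 WT and 3 CaMKK2 KO B cells were too shallow to be thinned.

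Fcgrt ran in another order, with type 1 dendritic cells (DC1) and DC2 at the top, but not the other dendritic classes. It averaged 187 ± 64.2 CPM in DC1, 164 ± 56.3 CPM in DC2, 147 ± 55.8 CPM in microglia and 108 ± 76.6 CPM in ncMono. TAM followed at 86.2 ± 41.5 CPM and plasmacytoid dendritic cells (pDC) at 55.5 ± 47.2 CPM, with no pDC in WT mouse 1. Then came cMono at 31.3 ± 19.8 CPM and mature dendritic cells at 28.7 ± 17.8 CPM. Neighbours in this order overlapped within 1 SD. Fcrl5 had 18.7 ± 13.2 CPM in B cells and 8.3 ± 4.28 CPM in TAM, and none of its UMIs fell in microglia or CD8 T cells.

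**Figure D1:**
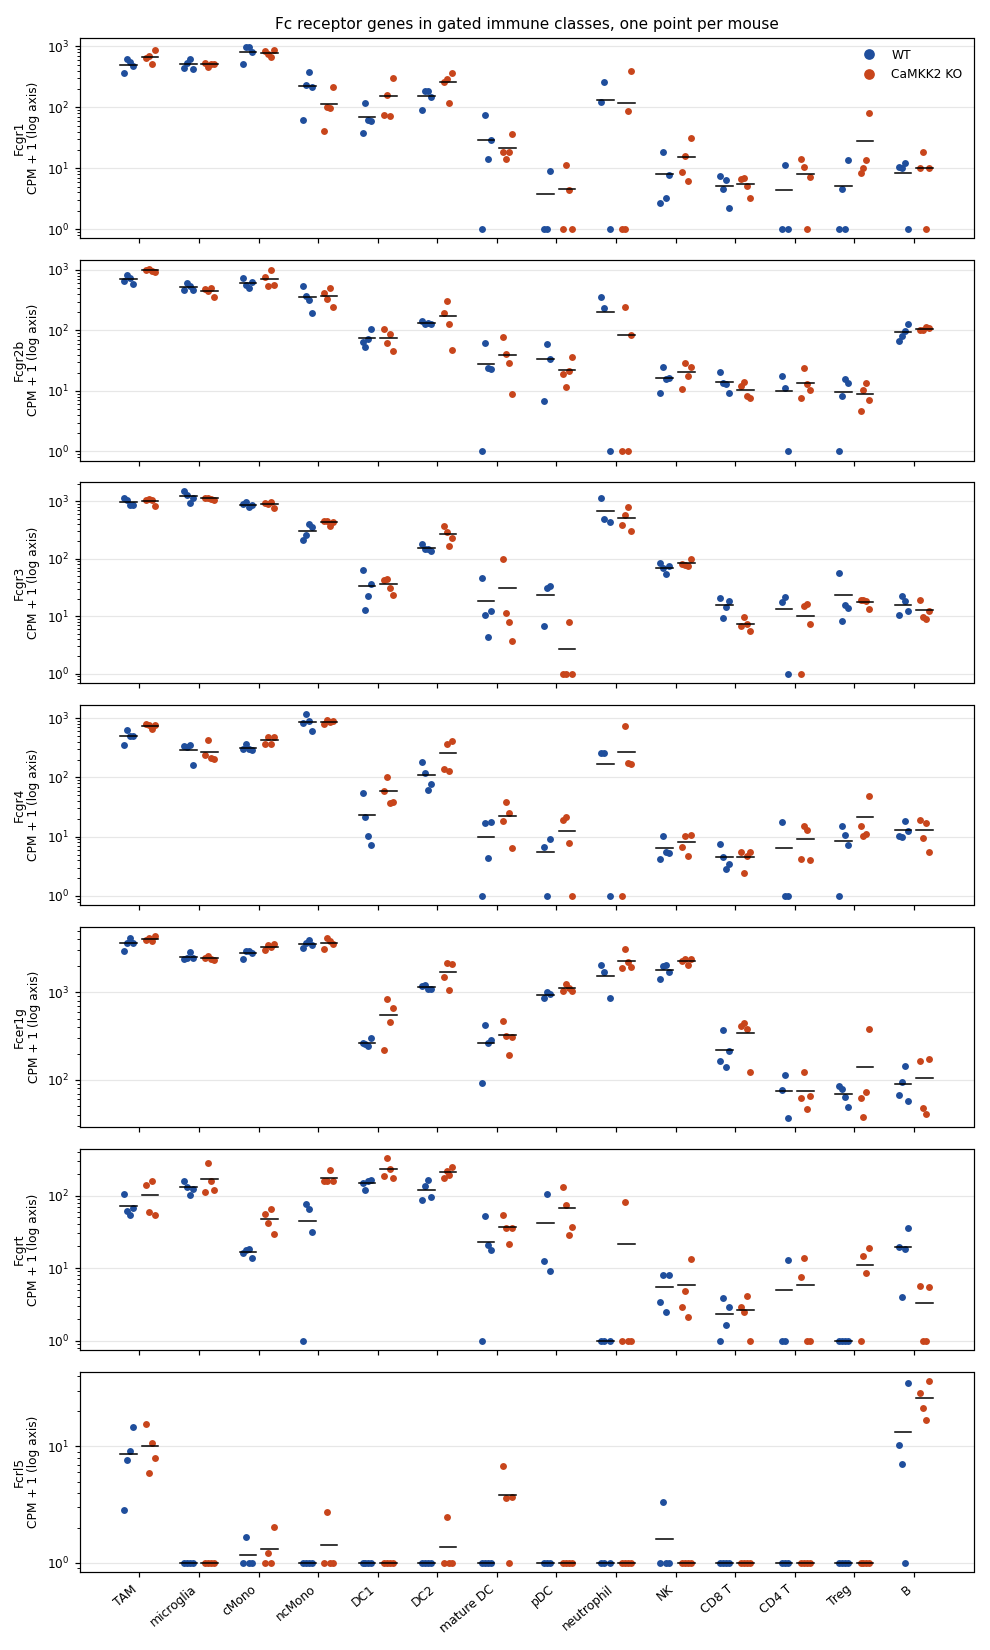
CPM plus 1 on a log axis for each of the 7 genes (rows) in the 14 gated classes (columns), with a point for each mouse and a line at the mean of each genotype. Points at 1 are mice without a UMI, and for Fcgr1, Fcgr3 and Fcgr4 the means of TAM, cMono and microglia stand above those of every lymphoid class.

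The first comparison asked whether loss of CaMKK2 went with other Fc receptor levels in TAM. Fcgr2b was at 666, 810, 724 and 594 CPM in the WT mice and at 1002, 1030, 978 and 939 CPM in the CaMKK2 KO mice. Every CaMKK2 KO mouse lay above every WT mouse, with means of 699 ± 91.3 and 987 ± 38.4 CPM (SD, n = 4 each). Its log2 fold change was 0.50 (SE 0.11) with an edgeR adjusted p of 0.0519, just outside the threshold of 0.05. DESeq2 gave Fcgr2b an adjusted p of 7.3e-05, and edgeR with TMM scaling gave 0.0287. It was not called by limma (adjusted p = 0.064) or by edgeR with cells grouped by cluster (0.0612). Of 16 alternative fits, 7 called Fcgr2b. The highest adjusted p among them was 0.144, by edgeR when CaMKK2 KO mouse 2 was dropped.

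Fcgr4 was at 352, 628, 502 and 501 CPM in WT TAM and at 811, 773, 651 and 754 CPM in CaMKK2 KO TAM. The groups did not overlap here either, although the highest WT and the lowest CaMKK2 KO mouse were close. The log2 fold change was 0.59 (SE 0.16), with an adjusted p of 0.0916 by edgeR and 0.00774 by DESeq2. Groups without overlap and with CaMKK2 KO on top were seen for 2 of the 7 genes, Fcgr2b and Fcgr4, and for 4.06% of the 9344 genes tested in TAM.

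The other members overlapped between genotypes in TAM. Fcgr1 was at 360, 610, 563 and 474 CPM in WT and at 654, 696, 514 and 858 CPM in CaMKK2 KO mice, which gave a log2 difference of 0.44 (SE 0.19, edgeR adjusted p = 0.229). Fcer1g differed by 0.18 (SE 0.12, adjusted p = 0.415) and Fcgr3 by 0.03 (SE 0.13, adjusted p = 0.907). Fcgrt, at 52.1 to 102 CPM in WT mice, was split within the CaMKK2 KO mice into 2 with 53.5 and 58.4 CPM and 2 with 137 and 159 CPM. In all, edgeR called 0 of 7 members in TAM, beside 2.13% of all genes tested, 3 members had an unadjusted p under 0.05, as 21.4% of all tested genes did, and DESeq2 called 2, beside 6.22% of all genes. The fitted log2 differences of the 7 members had a median of 0.44, beside -0.08 over all tested genes.

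Markers of other cell types were read in the same TAM. The summed level of 7 cMono markers was 632 to 2119 CPM in WT and 1840 to 6185 CPM in CaMKK2 KO TAM, with no marker at 0 and none of the 6 tested markers called, and that of 10 microglia markers was 325 to 432 and 135 to 270 CPM, with 1 of 7 tested markers lower. Their part in the Fcgr2b and Fcgr4 values was not tested.

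**Figure D2:**
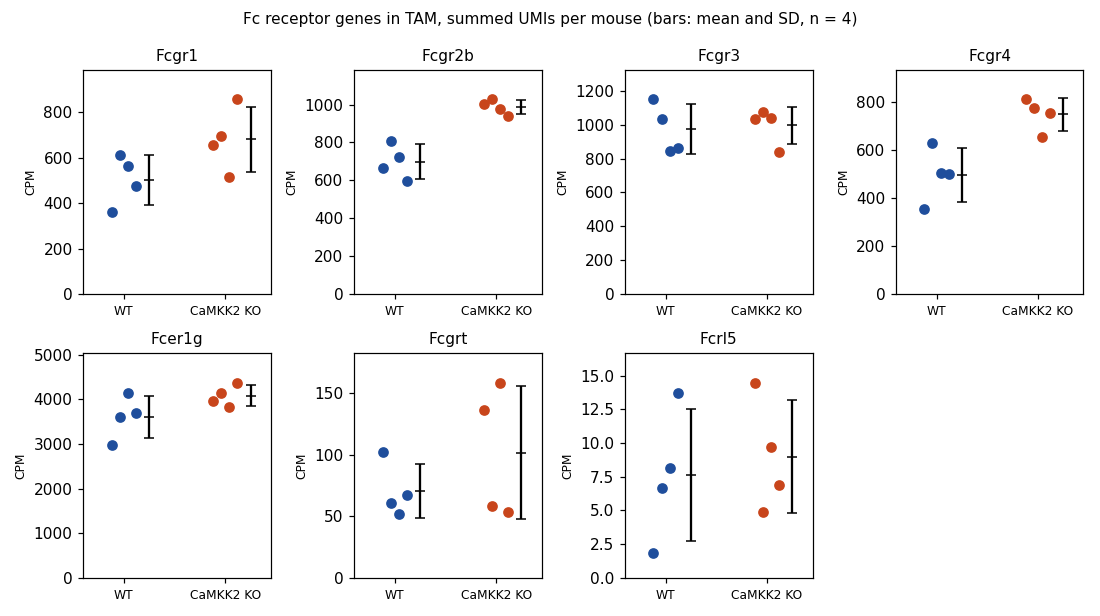
CPM of the 7 genes in TAM, 1 panel a gene on its own linear axis from 0, with a point for each of the 4 WT and 4 CaMKK2 KO mice and bars for mean and SD. The points of Fcgr2b and Fcgr4 do not overlap between genotypes, and those of the other 5 do.

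In cMono the recycling receptor was the gene that rose. Fcgrt was at 15.3, 17, 17.2 and 12.7 CPM in the WT mice and at 54.7, 40.3, 64.6 and 28.7 CPM in the CaMKK2 KO mice. The lowest CaMKK2 KO mouse stood well above the highest WT mouse, and the means were 15.5 ± 2.06 and 47.1 ± 15.8 CPM (n = 4 each). The log2 fold change was 1.52 (SE 0.28, edgeR adjusted p = 0.0177). In cells thinned to 3000 UMIs, an Fcgrt UMI was seen in 3.62% of WT and 10.8% of CaMKK2 KO cMono, against 0.51% and 0.9% of CD8 T cells. Without thinning, at a median of 11850 and 11290 UMIs, the shares were 17.1% and 30.2% of cMono. In the same cells 8 ncMono markers summed to 180 to 327 CPM in WT and 259 to 410 CPM in CaMKK2 KO mice, and their part in the Fcgrt values was not tested. The Fcgrt call made 1 of 6 members called in cMono, beside 2.37% of the 6495 genes tested there, and DESeq2 also called 1. The call was lost with stricter gates (adjusted p = 0.0633) and without WT mouse 2, 3 or 4 (0.0676, 0.0595 and 0.0577). WT mouse 1 had 26 cMono, in which 3 UMIs made 11.5 CPM, and the call held without it (edgeR adjusted p = 0.0279). In its cMono 8 neutrophil markers summed to 1532 CPM, against 159 to 357 CPM in the other WT mice. Their part in the Fcgrt values was not tested.

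Fcgr4 and Fcer1g did not pass the test in the same cells. Fcgr4 was at 298, 359, 303 and 286 CPM in WT cMono and at 368, 474, 364 and 475 CPM in CaMKK2 KO cMono, a log2 difference of 0.43 (SE 0.15, adjusted p = 0.171). Fcer1g was at 2415 to 2981 CPM in WT and at 2999 to 3552 CPM in CaMKK2 KO mice, a difference of 0.25 (SE 0.11, adjusted p = 0.288). Neither pair of groups overlapped, which with Fcgrt made 3 of 6 members without overlap, beside 4.71% of all tested genes with CaMKK2 KO on top. Fcgr1, Fcgr2b and Fcgr3 overlapped, with log2 differences of -0.07, 0.23 and 0.01.

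Fcgrt values of CaMKK2 KO mice lay above those of WT mice in DC2, ncMono and DC1 as well. They overlapped between genotypes in TAM, microglia, mature dendritic cells and pDC. In DC2 they were 85.3, 133, 165 and 95.7 CPM in WT and 173, 218, 194 and 244 CPM in CaMKK2 KO mice, without overlap, but the log2 difference of 0.77 (SE 0.22) had an adjusted p of 0.133. In ncMono, too few for a test with 5 cells in WT mouse 1, Fcgrt was at 0, 76.4, 65.1 and 30.1 CPM in WT and at 157, 159, 222 and 158 CPM in CaMKK2 KO mice. The value of 0 allows up to 90.3 CPM in that mouse, counting error only. DC1 were also too few for a test, with 7 to 29 cells per mouse. Fcgrt was at 147, 118, 157 and 164 CPM in WT DC1 and at 185, 325, 229 and 173 CPM in CaMKK2 KO DC1. The highest WT and the lowest CaMKK2 KO mouse were close there. For ncMono and DC1 the share of all genes without overlap was not computed. The plot of Fcgrt by class shows these groups apart, and those of TAM and microglia mixed.

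**Figure D3:**
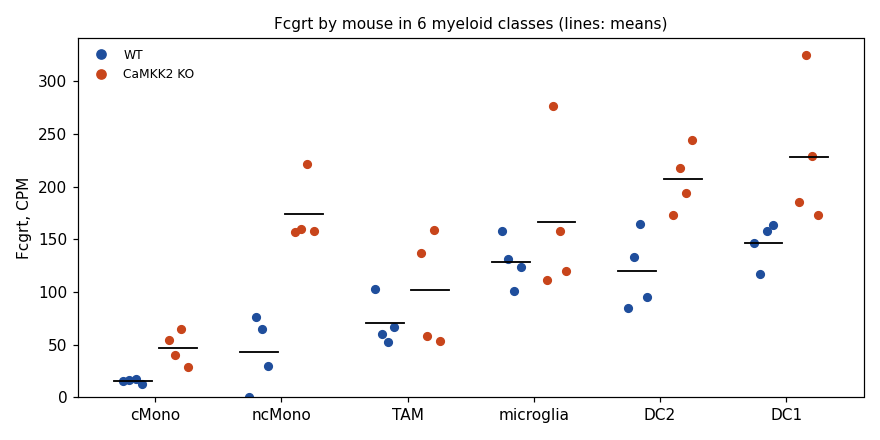
Fcgrt CPM in 6 myeloid classes on a linear axis, with a point for each mouse and a line at the mean of each genotype. CaMKK2 KO mice lie above WT mice in cMono, ncMono, DC2 and DC1, and overlap with them in TAM and microglia. The ncMono and DC1 had too few cells for a test, and in DC1 the groups nearly touch.

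Microglia showed no member past the threshold, 0 of 6 beside 1.5% of the 4470 genes tested by edgeR, with 0 at an unadjusted p under 0.05 and 0 by DESeq2. Fcgr3 was at 932 to 1478 CPM in WT and at 1056 to 1158 CPM in CaMKK2 KO mice (log2 difference -0.12, SE 0.14, adjusted p = 0.731). Fcgr2b differed by -0.22 (SE 0.15, adjusted p = 0.514), at 461 to 604 CPM in WT and 350 to 494 CPM in CaMKK2 KO mice.

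DC2 had 0 of 6 members called by edgeR, beside 1.3% of 4549 genes, and 0 by DESeq2, and 5 members had an unadjusted p under 0.05, as 15.8% of all tested genes did. Fcgr3 was at 181, 146, 145 and 137 CPM in WT and at 376, 295, 162 and 231 CPM in CaMKK2 KO mice, which gave a log2 difference of 0.82 (SE 0.23, adjusted p = 0.136). CaMKK2 KO mouse 3 was the lowest of its group for 4 of the 6 members, and without it Fcgr3, Fcer1g and Fcgr1 had adjusted p values of 0.0105, 0.0107 and 0.0356. Calls over all genes rose too without that mouse, to 271 of 4044 genes tested, against 59 of 4549 with every mouse. Of the 6 members, Fcgrt alone had groups that did not overlap, beside 5.17% of all tested genes. In DC2 the summed level of 7 cMono markers was 818 to 1531 CPM in WT and 1585 to 2987 CPM in CaMKK2 KO mice, without overlap and with 0 of 4 tested markers called. That of 8 ncMono markers was 49.1 to 139 CPM in WT and 84.3 to 760 CPM in CaMKK2 KO mice, the highest in CaMKK2 KO mouse 4, which had 11 DC2 cells, and the part of either in these values was not tested.

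In NK cells Fcer1g was at 1417, 1985, 2033 and 1703 CPM in WT and at 2275, 2374, 2041 and 2376 CPM in CaMKK2 KO mice. The groups came close without overlapping, as 1 of 3 members tested and 7.14% of all 6642 genes did with CaMKK2 KO on top. The log2 difference was 0.34 (SE 0.12, edgeR adjusted p = 0.168), and Fcgr3, at 53.8 to 82.7 CPM in WT and 72.9 to 97 CPM in CaMKK2 KO mice, differed by 0.22 (SE 0.14, adjusted p = 0.455). edgeR called 0 of 3 members in NK cells, beside 1.99% of genes, with 1 at an unadjusted p under 0.05, as 17.4% of genes were, and DESeq2 called 0. In the same NK cells the summed level of 7 cMono markers was 766 to 1066 CPM in WT and 1355 to 1596 CPM in CaMKK2 KO mice, with 2 of 4 tested markers higher. That of 8 ncMono markers was 287 to 418 and 474 to 651 CPM, with 2 of 2 tested markers higher, and 1 of 4 tested TAM markers was lower. The part of these markers in the NK values given here and further on was not tested. In CD8 T and B cells the only member with enough UMIs for a test was Fcer1g, which was not called in either, beside 1.23% and 1.91% of genes, nor did it have an unadjusted p under 0.05 or a DESeq2 call there.

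A test of the difference between classes asked whether the genotype effects in TAM differed from those in cMono and microglia. The effect on Fcgrt was larger in cMono than in TAM by 0.93 on the log2 scale (SE 0.24, edgeR adjusted p = 0.121), and that on Fcgr1 was smaller by 0.47 (-0.47, SE 0.12, adjusted p = 0.117). Against microglia, the effect on Fcgr2b was 0.72 lower than in TAM (-0.72, SE 0.17, adjusted p = 0.145). edgeR called 0 of 7 members in either comparison, beside 0.351% and 0.103% of all genes. At an unadjusted p under 0.05 there were 2 and 3 members, beside 10.2% and 8.66% of all genes. DESeq2 called 1 member in each, Fcgr1 against cMono (adjusted p = 0.019) and Fcgr2b against microglia (adjusted p = 0.00258). Beside them it called 79 of 9693 genes (0.815%) against cMono and 19 of 9691 (0.196%) against microglia. Only 7438 and 1236 of these genes received a DESeq2 adjusted p, so the shares among genes that could be called were larger.

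The balance of activating and inhibitory IgG receptors was followed as the log2 ratio of Fcgr1, Fcgr3 and Fcgr4 UMIs to Fcgr2b UMIs of the same cells, which does not depend on depth. In TAM it was 1.49, 1.49, 1.40 and 1.63 in WT mice and 1.32, 1.304, 1.17 and 1.38 in CaMKK2 KO mice. The groups did not overlap, though the lowest WT and the highest CaMKK2 KO mouse nearly touched. The ratio was lower in CaMKK2 KO TAM, 1.29 ± 0.0885 against 1.499 ± 0.0946 (SD, n = 4 each), a difference of -0.205 with p = 0.0286 in a two-sided exact permutation test, the smallest p that 4 against 4 mice can give. Adjusted over the 3 classes with enough UMIs, p was 0.0857. In microglia the ratio was 1.78 to 2.29 in WT and 1.89 to 2.34 in CaMKK2 KO mice (difference 0.14, exact permutation p = 0.343), and in cMono 1.19 to 2.03 and 1.02 to 1.94 (difference -0.13, p = 0.657, both adjusted p over 0.5).

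**Figure D4:**
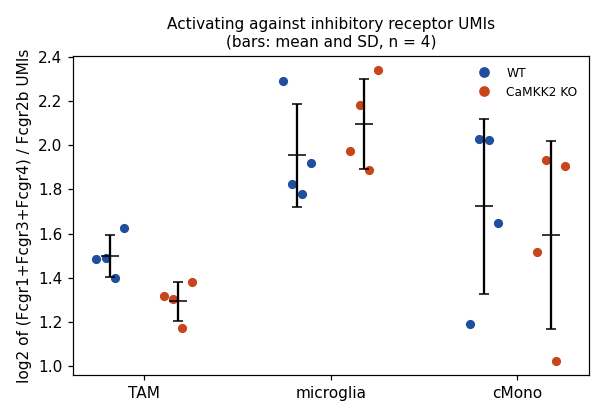
Log2 of the summed Fcgr1, Fcgr3 and Fcgr4 UMIs over the Fcgr2b UMIs in TAM, microglia and cMono, with a point for each mouse and bars for mean and SD (n = 4). The CaMKK2 KO points of TAM, 1.17 to 1.38, lie below the WT points, 1.40 to 1.63, and the groups of microglia and cMono overlap.

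Within each mouse, TAM were divided at the median share of UMIs from MHC class II genes (H2-Aa, H2-Ab1, H2-Eb1 and Cd74), which present antigen to CD4 T cells, and the MHC-II-high part was compared with the MHC-II-low part. These are ranges of a score and not cell types. They lay at different levels in the genotypes, since the median MHC class II share was 0.406% to 3.45% in MHC-II-high TAM of the WT mice and 3.6% to 5.05% in MHC-II-low TAM of the CaMKK2 KO mice, and in the CaMKK2 KO mice 52 to 91 cells lay within 10% of the cut, against 11 to 24 in the WT mice. Fcgr2b was at 635, 755, 658 and 537 CPM in MHC-II-low TAM of the WT mice and at 702, 864, 797 and 651 CPM in their MHC-II-high TAM. In the CaMKK2 KO mice it was at 871, 956, 824 and 908 CPM in MHC-II-low and at 1137, 1101, 1141 and 966 CPM in MHC-II-high TAM. It was thus higher in MHC-II-high TAM in 8 of 8 mice, by 0.26 on the log2 scale (SE 0.05, edgeR adjusted p = 0.000935). Fcrl5 went the other way, with 1.96 to 24.9 CPM in MHC-II-low and 0 to 6.97 CPM in MHC-II-high TAM, lower in 8 of 8 mice by a log2 difference of -2.70 (SE 0.33, adjusted p = 4.09e-05). These were 2 of 7 members called, beside 15.3% of 9342 genes. The activating receptors Fcgr1, Fcgr3 and Fcgr4 differed by -0.09, 0.03 and 0.03, each with an adjusted p over 0.2.

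Fcrl5 was detected in few TAM. Of its UMIs in kept cells, 86% fell in TAM, where 170 of 3073 cells held 441 UMIs, up to 16 in a cell, and 7.21% fell in 25 of 367 B cells. The Fcrl5 level of TAM was 1.85, 6.66, 8.13 and 13.8 CPM in WT and 14.5, 4.87, 9.73 and 6.91 CPM in CaMKK2 KO mice (log2 difference 0.28, SE 0.52, adjusted p = 0.788). The groups overlapped. The largest cluster of WT TAM and that of CaMKK2 KO TAM held an Fcrl5 UMI in 6.07% of cells each.

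TAM with an Fcrl5 UMI were then compared with the other TAM of the same mouse, a comparison chosen after the data were seen, with 3 to 54 such cells per mouse and a higher median depth than the other TAM in 7 of 8 mice. The part of depth was not tested. Fcgr4 was at 342, 592, 469 and 449 CPM in WT TAM without Fcrl5 and at 1353, 1369, 900 and 916 CPM in WT TAM with it. In CaMKK2 KO mice it was at 707, 766, 608 and 730 CPM without and at 1602, 1195, 1251 and 1434 CPM with Fcrl5. Every mouse moved upward, by 1.12 on the log2 scale (SE 0.11, edgeR adjusted p = 5.86e-08).

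Fcer1g rose with Fcgr4, from 3721 ± 418 to 5911 ± 601 CPM (n = 8 mice, 8 of 8 higher, log2 difference 0.67, SE 0.08, adjusted p = 8.27e-07). Fcgr2b was lower in TAM with Fcrl5, at 867 ± 175 CPM without and 420 ± 187 CPM with it (log2 difference -1.02, SE 0.21, adjusted p = 0.00117, 8 of 8 mice). Fcgr3 was lower as well, at 1004 ± 116 and 602 ± 142 CPM (log2 difference -0.72, SE 0.11, adjusted p = 1.66e-05, 8 of 8 mice). Fcgrt was higher in 7 of 8 mice, by 0.42 (SE 0.12, adjusted p = 0.0174), and Fcgr1 had a difference of -0.31 (SE 0.11, adjusted p = 0.0687). This made 5 of 6 members called, beside 15.1% of 9343 genes, and DESeq2 called 4, beside 11.9%. Under DESeq2 the adjusted p of Fcgr2b was 0.117 and that of Fcgrt was 0.201, while Fcgr1 was called at 0.0228. The Fcgrt call was also lost without WT mouse 3, CaMKK2 KO mouse 1 or CaMKK2 KO mouse 3 (adjusted p = 0.0959, 0.0876 and 0.079). CaMKK2 KO mouse 2, with 3 such cells, had no Fcgr2b UMI in them, and without it the Fcgr2b difference was -0.82 (adjusted p = 9.66e-08).

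**Figure D5:**
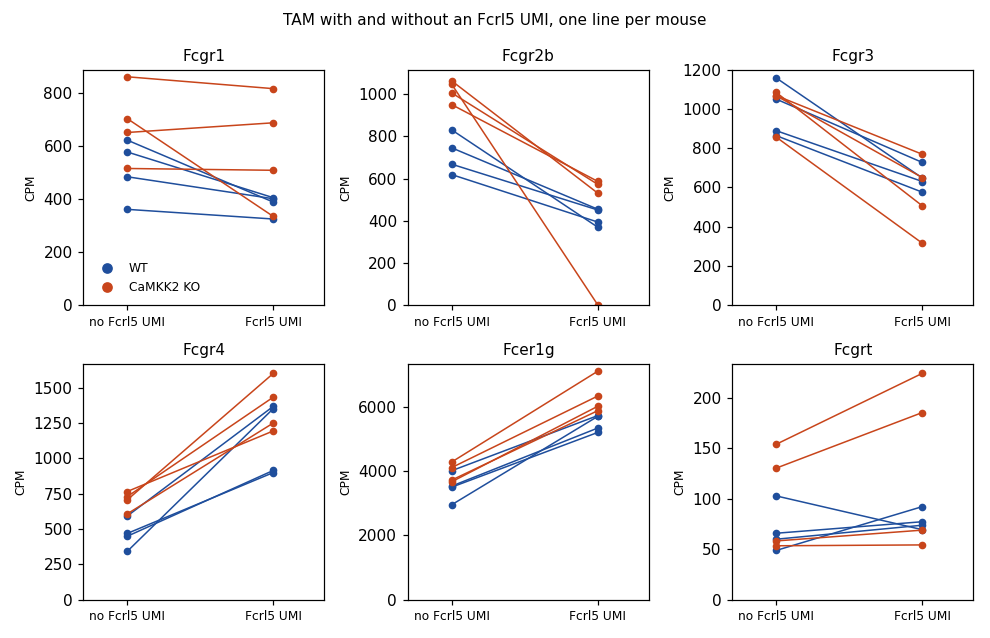
CPM of the other 6 genes in TAM without and with an Fcrl5 UMI, on linear axes from 0, with a line for each of the 8 mice. Lines of Fcgr4 and Fcer1g rise in every mouse and those of Fcgr2b and Fcgr3 fall in every mouse.

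The remaining Fc receptor and Fc receptor-like genes were followed as a list of 12. Fcrls, a receptor-like gene known as a marker of microglia, was at 591, 1327, 855 and 1340 CPM in WT microglia and at 21.8, 0, 59.1 and 14.7 CPM in CaMKK2 KO microglia. Every CaMKK2 KO mouse lay far under every WT mouse, with a log2 difference of -5.20 (SE 0.50, edgeR adjusted p = 6.07e-05). The summed level of the 10 microglia markers of the gate, in which Fcrls was not included, was 4703 to 7530 CPM in WT and 4031 to 6898 CPM in CaMKK2 KO microglia, and 1 of the 10, Slc2a5, was also lower (log2 difference -3.17, adjusted p = 0.00346). The summed level of 7 cMono markers in the same microglia was 44.9 to 171 CPM in WT and 353 to 596 CPM in CaMKK2 KO mice, with 2 of 2 tested markers higher, and its part in the microglia values was not tested. How far the CaMKK2-/- line was backcrossed is not given in the sources used here. A difference between the mouse lines and the loss of CaMKK2 therefore cannot be told apart, for Fcrls or for any other genotype difference given here. Fcrls was lower in CaMKK2 KO TAM too, at 70.3 to 236 and 0 to 11.5 CPM (log2 difference -4.34, SE 0.63, adjusted p = 0.00727). Fcrl6, a receptor-like gene of cytotoxic lymphocytes, was higher in CaMKK2 KO NK cells, at 13.3 to 21.3 CPM in WT and 26.3 to 61.5 CPM in CaMKK2 KO mice (log2 difference 1.42, SE 0.29, adjusted p = 0.0272). These were 1 of 3 list genes tested in TAM, 1 of 1 in microglia and 1 of 1 in NK cells, and 0 of 1 in cMono and 0 of 4 in B cells.

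The genes that flank the receptors were read in the same fits. Within 2 Mb of the stretch from Fcgr2b to Fcer1g, 2 of 46 genes tested in TAM were higher and 3 were lower, and in microglia 2 of 30 were higher and 2 lower, beside 2.13% and 1.5% of all genes called in these classes. Within 2 Mb of the stretch from Fcrls to Fcrl5, 0 of 53 were higher and 2 lower in TAM, Fcrls and Pmvk. Rps3a1, in this window, was lower in cMono, DC2, NK, CD8 T and B cells. Its log2 differences there were -0.70, -0.60, -0.75, -0.61 and -0.37. In NK cells 2 of 44 genes of the window were lower, Rps3a1 and Hdgf, and 1 was higher, Sema4a. The part of these flanking calls in the Fcrls values was not tested. Around Fcgr1, 1 of 58 genes was higher and 1 lower in TAM. Around Fcgrt, 1 of 44 genes was called in cMono, Fcgrt itself. Napsa, in that window, was higher in TAM (1 of 68), CD8 T (1 of 40) and B cells (1 of 14). Its log2 differences there were 0.54, 1.13 and 0.67. In NK cells 2 of 48 were higher, Nkg7 and Nucb1.

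Few immunoglobulin heavy chain constant genes reached the test. Of 8 on the list, 2 did so in B cells, Ighm and Ighd, and 0 were called there. These encode chains of IgM and IgD, so no gene of IgG, the ligand of the receptors followed here, was tested in B cells. Ighm was lower in CaMKK2 KO NK cells, at 152 to 196 CPM in WT and 38.8 to 91.2 CPM in CaMKK2 KO mice, where 1 of 2 tested genes of this list was called (log2 difference -1.30, SE 0.21, edgeR adjusted p = 0.00847). B cells had 3575 ± 491 and 3249 ± 606 CPM of Ighm. Among 14 partners of the FcR γ-chain and of FcRn, 13 of them in the files, 0 of 10 tested in TAM, 0 of 10 in cMono and 0 of 4 in microglia were called. B2m, the partner of FcRn, was at 3544 ± 1007 and 6023 ± 892 CPM in cMono (adjusted p = 0.0927), and was called in DC2 as 1 of 7 (log2 difference 0.63, SE 0.13, adjusted p = 0.0421).

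Among signalling genes few passed the test, and the shares called over all genes were 2.13% in TAM, 1.99% in NK cells and 1.3% in DC2. Of 20 kinases and adaptors downstream of activating receptors, 1 of 20 was higher in TAM, Card9, an adaptor below Syk, at 15.1 ± 3.59 and 31.9 ± 5.21 CPM (log2 difference 1.09, SE 0.19, edgeR adjusted p = 0.0189). In cMono 0 of 20 and in microglia 0 of 17 were called. In NK cells 2 of 16 were higher, the adaptor Lat2 (137 ± 8.03 and 190 ± 17.4 CPM, adjusted p = 0.0289) and the GTPase Rac2 (715 ± 26 and 976 ± 114 CPM, adjusted p = 0.0484), and in DC2 1 of 19, Lat2. Of 15 inhibitors of Fc receptor signalling, 0 of 15 were called in TAM, 0 of 14 in cMono and 0 of 11 in microglia. In NK cells 1 of 10 was higher, Ubash3b, a phosphatase that acts on Syk-family kinases (adjusted p = 0.0317). Median log2 differences in TAM were 0.04 for the kinases and adaptors and -0.10 for the inhibitors, beside -0.08 over all tested genes.

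The phagocyte oxidase, which makes superoxide when Fc receptors are engaged, had 1 of 6 genes called in each of TAM, cMono and DC2, in each of them Ncf4. Ncf4 was at 209, 288, 234 and 211 CPM in WT TAM and at 436, 494, 401 and 498 CPM in CaMKK2 KO TAM, with no overlap (log2 difference 0.96, SE 0.13, edgeR adjusted p = 0.00464). In cMono it was at 313 ± 35.8 and 660 ± 36.3 CPM (adjusted p = 0.00169). Interferon-gamma response genes, among which Fcgr1 is often counted, had 1 of 16 called in TAM, 4 of 13 in microglia, 1 of 16 in cMono, 2 of 15 in NK and 1 of 7 in B cells, each of them higher in CaMKK2 KO mice. Ciita, the master regulator of MHC class II genes, was called in TAM (30.3 ± 16.3 and 235 ± 62.3 CPM, adjusted p = 0.0142) and in cMono (adjusted p = 0.013). Gbp5, Cxcl9, Psmb9 and Irf1 were called in microglia, Tap1 and Irf8 in NK cells and Psmb9 in B cells. The list's median log2 difference in TAM was 1.16, beside -0.08 over all genes. In DC2, whose genes B2m, Lat2, Ncf4, Psmb9 and Ciita were singled out after their values were seen, 2 of 16 of the interferon list were called, Psmb9 and Ciita.

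Over the means of the 7 tested classes, the genes whose log2(CPM + 1) levels ran most like each member were found, as a description with classes of 8 shared mice and no test. Fcgr1 ran most like Tifab (Pearson r = 0.998), Fcgr3 like Itgam (r = 0.997), the integrin chain of complement receptor CR3, and Fcgr4 like Pilra (r = 0.995). Fcgr2b ran most like Ets2 (r = 0.993), Fcer1g like Morf4l2 (r = 0.995), Fcgrt like Pepd (r = 0.987) and Fcrl5 like Specc1l (r = 0.953). The next genes were Rtn4 and Tcf7l2 for Fcgr1, Map3k20 and Aldh3b1 for Fcgr2b, Pdia6 and Iqsec2 for Fcgr3, Milr1 and Nfe2l2 for Fcgr4, Hyou1 and Hgs for Fcer1g, Tm2d1 and Gm33370 for Fcgrt, and Ufsp1 and Pigw for Fcrl5.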

How the data were processed

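The authors sequenced sorted cells on the 10x 3′ v3.1 platform and deposited UMI counts per gene and barcode, with hashtag counts (per the labels, bcl2fastq 2.20, Cell Ranger 4.0.0, STAR 2.7.5c, mm10). Mice were assigned with HTODemux (Seurat 5.3.0, quantile 0.99). Cells under 200 genes or outlying by 3 median absolute deviations (scuttle 1.12.0) and Scrublet doublets (scanpy 1.11.5; 194 WT and 146 CaMKK2 KO cells) were left out. Classes came from marker UMIs per 10000, with cuts set after marker levels were seen. UMIs were added up by class within each mouse (11954415 to 20324327 UMIs per mouse in all), and genes with at least 200 were tested with edgeR 4.0.16 (quasi-likelihood, total UMIs as library size, Benjamini-Hochberg over all tested genes, threshold 0.05), with the mouse as a block within TAM and between classes. The study tested cells with MAST. P-values here reflect the spread between mice of 1 channel per genotype. DESeq2 1.42.0, limma 3.58.1, other scalings, filters, gates, clusters and each mouse left out were alternatives. Named were the members in every class, up to 4 called genes per list by adjusted p, and the 3 genes most like each member. Members and lists were chosen with earlier results of these data known. Scripts were tested on simulated data.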

Additional observations from a re-analysis of the deposited data

Results flagged for a closer look

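Among 66 groups of 4 mice examined, 3 had a mouse whose gap to the others exceeded Dixon's critical value, and chance gives about 1 in 20. All 3 were in microglia. Fcgr4 was at 164 CPM in WT mouse 4 against 319 to 351 CPM in the other WT mice, and at 428 CPM in CaMKK2 KO mouse 2 against 203 to 237 CPM in the other CaMKK2 KO mice. Fcer1g was at 2912 CPM in WT mouse 3 against 2366 to 2443 CPM in the other WT mice. These mice had 40, 23 and 38 microglia, of 23 to 119 per mouse. No member had a genotype effect that differed between TAM and cMono or microglia past the edgeR threshold.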

How the results depend on the processing

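No paired analysis was possible because the hashtag numbers 1 to 4 name mice within a genotype and pair none across genotypes. With TMM scaling, no filter, at least 50 UMIs, outlying cells kept or stricter gates, 1 member was called in TAM (Fcgr2b), and with DESeq2 2 were, and the cause was not tested. Leaving out each mouse gave 0 to 1 in TAM (1 without WT mouse 2), 0 to 1 in cMono (0 without WT mouse 2, 3 or 4) and 0 to 3 in DC2 (3 without CaMKK2 KO mouse 3). Stricter gates gave 0 in cMono, no filter gave 4 in DC2 and 1 in CD8 T cells, and DESeq2 gave 1 in each comparison of TAM with cMono or microglia. The ratio in cMono was 0.255 higher in CaMKK2 KO mice by clusters and ranged from -0.305 to 0.0619 with a mouse left out (0.0619 without CaMKK2 KO mouse 3). Log2 differences that changed sign were uncalled. In microglia they were those of Fcgr1 (0.105 TMM, 6.9e-05 no filter, 1.49e-07 at least 50 UMIs, 0.108 DESeq2, 0.00848 limma, 0.0289 outlying cells kept), Fcgr4 (0.00721 DESeq2) and Fcer1g (0.0669 TMM, 0.0682 DESeq2). In cMono they were Fcgr1 (0.00293 limma), Fcgr2b (-0.101 clusters) and Fcgr3 (-0.188 stricter gates). Others were Fcgr2b in DC2 (-0.0834 clusters), the TAM against cMono differences of Fcgr4 (0.132) and Fcer1g (-0.00569) and the TAM against microglia difference of Fcgrt (0.0709), all by clusters, Fcgrt in MHC-II-high TAM (0.049 DESeq2), and Fcrl5 in TAM against cMono (-0.161) and against microglia (0.375, no UMI in microglia), both with DESeq2, which gave them no adjusted p. With a mouse left out, sign changes occurred in these ranges, -0.0286 to 0.127 for Fcgr3 in TAM, -0.0613 to 0.774 for Fcrl5 in TAM, -0.0664 to 0.0966 for Fcgr1 in microglia, -0.0758 to 0.0286 for Fcer1g in microglia, -0.227 to 0.0358 for Fcgr1 in cMono, -0.0323 to 0.0855 for Fcgr3 in cMono, -0.109 to 0.0115 for Fcgr3 in TAM against cMono, -0.454 to 4.13 for Fcrl5 in TAM against cMono, -0.672 to 0.207 for Fcgrt in TAM against microglia, -0.033 to 0.0708 for Fcgr4 in MHC-II-high against low TAM and -0.0865 to 0.0299 for Fcgrt in MHC-II-high against low TAM. TMM moved the median log2 difference of all genes by 0.101 in microglia and by -0.0755 to 0.0841 in the other classes. Over all genes, DESeq2 called 581 in TAM against 199 by edgeR, 105 against 67 in microglia, 260 against 154 in cMono, 139 against 59 in DC2, 115 against 64 in CD8 T and 51 against 22 in B cells, 79 against 34 and 19 against 10 between classes, 719 against 1428 for MHC-II, and 480 higher and 629 lower against 782 and 625 for the Fcrl5 comparison. No filter called 395, 422, 385, 334, 410, 472 and 227 in TAM, microglia, cMono, DC2, NK, CD8 T and B cells, where the 200-UMI filter called 132 in NK cells. Without CaMKK2 KO mouse 3, edgeR called 318, 140, 271, 617 and 93 genes in TAM, microglia, DC2, NK and B cells, and the cause was not tested. Of the other member results, levels by class included, 726 were unchanged. Differences among them kept direction and side of the threshold, and levels stayed within 1 SD. Another 20 differences passed the threshold, 9 no longer did, and 1 level moved by more than 1 SD. Low cell numbers (11 DC2 in CaMKK2 KO mouse 4, 5 ncMono in WT mouse 1) limit the rarer classes.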

Other observations

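TAM with an Fcrl5 UMI differed from the other TAM of the same mouse in many genes besides the Fc receptors, with 782 higher and 625 lower of 9343 genes tested by edgeR, and 480 higher and 629 lower by DESeq2, so that the more frequent direction depends on the tool. These genes were read after their values were seen, among those with the lowest p values in each direction. Cd300e, an activating receptor of non-classical monocytes, was at 14.2 ± 7.56 CPM without and 219 ± 151 CPM with Fcrl5 (n = 8 mice, log2 difference 3.69, SE 0.18, adjusted p = 2.34e-13). Klra17 (18.1 ± 8.8 and 159 ± 46.2 CPM), Spn, which encodes CD43 (18.7 ± 6.1 and 140 ± 48.3 CPM), Cd72 (390 ± 150 and 1840 ± 317 CPM) and the transcription factor gene Pou2f2 (208 ± 51.3 and 668 ± 116 CPM) were likewise higher in 8 of 8 mice. Of the 8 TAM markers, 5 were higher, among them C1qa, C1qb and C1qc, and Mertk was lower.

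Lower in these cells in 8 of 8 mice were Gpnmb (82.5 ± 38.1 CPM without and 3.28 ± 4.44 CPM with Fcrl5), Fabp5 (216 ± 103 and 25 ± 18.9 CPM), Fn1 (422 ± 253 and 37 ± 63.9 CPM) and Chil3 (318 ± 146 and 37.3 ± 59.8 CPM). Of the cMono markers, 6 of 6 tested were lower. Of the ncMono markers, Cd300e and Spn were higher as 2 of 5 tested, and Itgal, Eno3 and Treml4 were not called, with log2 differences of -0.45, 0.11 and 0.07. Of 2 B cell markers tested, Cd79b was higher and Cd22 lower. Ighm was higher by 2.01 (SE 0.26, edgeR adjusted p = 2.99e-06), and the part of B cell transcripts in these values was not tested. The median depth of cells with Fcrl5 was the higher in 7 of 8 mice, and in CaMKK2 KO mouse 2 the median was 30391 UMIs in its 3 cells with Fcrl5 and 15061 in the others. The part of depth in these values was not tested.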
